A study of Mus musculus with 29 samples.

Results

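The genes described here are 40 listed members of nucleotide excision repair, out of 56748 genes in the counts table of mouse aortic arch RNA. They were picked by name from their role in the pathway and each symbol matched 1 Ensembl gene. Of these, 7 recognise damage across the genome, 4 act at stalled RNA polymerase, 10 form TFIIH and its kinase, 8 verify and cut the damaged strand, and 11 fill and seal the gap. The study compared Ercc1Δ/- mice, which carry 1 loss-of-function allele and 1 allele encoding a truncated, partly active protein in every cell, with wild-type (WT) littermates. All were F1 C57BL6J/FVB hybrids on AIN93G pellets, housed singly, males and females in every group, and each mouse gave 1 library.

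The 6 groups were WT at 6 weeks fed ad libitum (AL; n = 5), Ercc1Δ/- at 6 weeks AL (n = 5), WT at 22 weeks AL (n = 4), Ercc1Δ/- at 22 weeks AL (n = 4), WT at 22 weeks under dietary restriction (DR; n = 5) and Ercc1Δ/- at 22 weeks DR (n = 5). DR began at 7 weeks with 10% less food and reached 30% from 9 weeks. Replicate 003 of WT at 22 weeks AL, left out by the study, had 400410 counts and is used only as an alternative. The other 28 libraries held 921167 to 9616382 counts. At 22 weeks every Ercc1Δ/- library was shallower than every WT library on the same diet: 1294980 to 3855444 against 3903589 to 9616382 counts under AL, and 921167 to 2572523 against 2660422 to 6124471 under DR. Genotype and depth therefore cannot be told apart at that age. The arch was rich in smooth muscle markers in every group.

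Nucleotide excision repair removes bulky lesions that distort the helix. XPC with its partners, or a stalled RNA polymerase, marks the lesion, and TFIIH opens the DNA around it through the helicases XPB (Ercc3) and XPD (Ercc2). XPA and RPA hold the open strands, XPG (Ercc5) cuts on 1 side and ERCC1-XPF (Ercc1 and Ercc4) on the other, and a polymerase and a ligase close the gap. ERCC1-XPF also works in crosslink and double-strand break repair, where SLX4 is a scaffold for nucleases.

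All 40 members passed the filter of more than 10 counts in more than 10 libraries, among 12353 genes tested. Their abundance differed widely. Levels are given per kilobase of exon, taken over the exons of all annotated transcripts. Reads were counted over the gene body, so levels of different genes compare only roughly. In the 14 WT libraries, the highest level was that of Ddb1, the damage-binding adaptor of a ubiquitin ligase, at 48.8 ± 2.71 CPM per kilobase (SD). Rad23b, a partner of XPC, followed at 21.2 ± 1.16 and the clamp Pcna at 19.3 ± 1.83. Of the nuclease genes, Ercc5 stood at 6.11 ± 0.823, Ercc1 at 4.05 ± 0.803 and Ercc4 at 1.5 ± 0.259. These were ranks 13, 19 and 33 among the 40. Pole, a replicative polymerase, had the lowest level at 0.175 ± 0.0806 and only 1 to 19 raw counts per library, so each value of Pole rests on few reads.

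Upstream sequences are shown for Ercc1 and Ercc2, which fell together, and for Lig1, which rose on both diets at 22 weeks. Each is the 250 bases before the start of the canonical transcript, 5′ to 3′, from GRCm39 with GENCODE starts, and capitals mark CCAAT boxes (CCAAT) and GC boxes (GGGCGG) on either strand.
Ercc1, chr7:19075644-19075893, plus strand: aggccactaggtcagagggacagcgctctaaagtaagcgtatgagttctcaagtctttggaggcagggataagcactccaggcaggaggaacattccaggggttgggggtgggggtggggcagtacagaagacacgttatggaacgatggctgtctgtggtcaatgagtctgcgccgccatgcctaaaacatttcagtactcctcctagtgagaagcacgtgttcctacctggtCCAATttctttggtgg
Ercc2, chr7:19115681-19115930, plus strand: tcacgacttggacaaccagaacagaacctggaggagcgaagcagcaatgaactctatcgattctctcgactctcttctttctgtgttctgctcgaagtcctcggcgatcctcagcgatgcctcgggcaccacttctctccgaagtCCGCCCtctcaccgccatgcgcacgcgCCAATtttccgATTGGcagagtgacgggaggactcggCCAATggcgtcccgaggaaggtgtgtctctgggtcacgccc
Lig1, chr7:13012221-13012470, plus strand: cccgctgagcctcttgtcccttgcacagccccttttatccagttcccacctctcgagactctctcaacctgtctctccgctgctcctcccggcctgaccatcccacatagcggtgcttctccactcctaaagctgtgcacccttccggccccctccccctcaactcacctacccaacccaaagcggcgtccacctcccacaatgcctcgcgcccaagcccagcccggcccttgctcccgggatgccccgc

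The window of Ercc1 held 1 CCAAT box and no GC box, and that of Ercc2 held 3 CCAAT boxes and 1 GC box. The window of Lig1 held neither. Over 21757 protein-coding genes, 36.5% of such windows had a CCAAT box and 36.3% a GC box, against 20 and 19 of the 40 members. An E2F motif, searched as TTTGGCGC, TTTCCCGC, TTTGCCGC and TTTCGCGC on both strands, was in 2.28% of all windows and in 1 member, Elof1, and in none of the 11 gap-filling members. A match is a run of letters and not a bound site.

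Ercc1 was the targeted gene and was lower in all 3 genotype comparisons. Values are normalized counts, that is, counts scaled to a common library size, and a gene was called when the edgeR quasi-likelihood test gave a Benjamini-Hochberg adjusted p of 0.05 or less and a change of at least 1.2-fold. At 6 weeks the WT mice had 119, 117, 52.2, 82.8 and 136 normalized counts of Ercc1, and the Ercc1Δ/- mice 31.2, 41, 42.1, 38.2 and 56.3. The highest mutant lay above the lowest WT, so the groups overlapped by that pair. The fitted level was 0.376 times that of WT (95% interval 0.289 to 0.49, log2 fold change -1.41, SE 0.18, edgeR adjusted p = 0.00032).

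At 22 weeks AL, Ercc1 measured 127, 110, 108 and 114 normalized counts in WT and 54.1, 54.6, 69.8 and 57.2 in Ercc1Δ/-, with no overlap. The fitted level was 0.512 times WT (0.383 to 0.684, edgeR adjusted p = 0.00271). Under DR it measured 94.2, 109, 113, 125 and 132 in WT and 28.2, 78.7, 36, 64.1 and 78.1 in Ercc1Δ/-, again without overlap, at 0.498 times WT (0.382 to 0.649, edgeR adjusted p = 0.000566). Two-sided exact permutation tests of the means gave p = 0.0159, 0.0286 and 0.00794 at 6 weeks AL, 22 weeks AL and 22 weeks DR, the middle one being the smallest that 4 against 4 mice allow. Reads were counted over the gene body, so transcripts of both mutant alleles count where their exons remain. Polr1g overlaps Ercc1 on the opposite strand, and the strand setting of the counting is not given in the sources used here.

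The next member to fall was Ercc2, which encodes the TFIIH helicase XPD. It was lower without overlap at both ages and on both diets. At 6 weeks WT had 153, 157, 133, 163 and 167 normalized counts and Ercc1Δ/- 114, 116, 90.7, 104 and 103. The fitted level was 0.685 times WT (0.569 to 0.825, edgeR adjusted p = 0.0323). At 22 weeks AL WT had 177, 169, 176 and 156 and Ercc1Δ/- 81.2, 84.1, 137 and 69.7, or 0.537 times WT (0.434 to 0.666, edgeR adjusted p = 0.000336). Under DR WT had 140, 221, 189, 156 and 216 and Ercc1Δ/- 89.4, 90.5, 96, 116 and 137, or 0.588 times WT (0.469 to 0.737, edgeR adjusted p = 0.00167). The highest mutant under DR stayed just below the lowest WT. The 6-week call was lost when Ercc1Δ/- 002, 015 or 027 or WT 009, 019 or 024 was left out, with the direction kept.

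Ercc2 is a neighbour of Ercc1. On GRCm39, Ercc1 spans chr7:19075881-19090450 and Ercc2 chr7:19115931-19129623, both on the plus strand and 25.5 kb apart, and Klc3 overlaps Ercc2 on the opposite strand. Of 37 other tested genes within 500 kb of Ercc1, Ercc2 included, 10.8% were called at 6 weeks, 29.7% at 22 weeks AL and 21.6% at 22 weeks DR. On the other chromosomes the shares were 1.6%, 11.9% and 12.9%. Bcam, which encodes a laminin-binding adhesion molecule, fell most clearly among these neighbours, by 0.83, 1.15 and 1.31 on the log2 scale (edgeR adjusted p = 1.73e-05, 7.25e-08 and 4.96e-09). Eml2 was lower in all 3 comparisons as well, Vasp and Dmpk in both at 22 weeks, Fosb at 6 weeks, Mark4 and Polr1g at 22 weeks AL, and Klc3 and Six5 at 22 weeks DR. Apoe, Apoc1, Tomm40 and Bcl3 were higher at 22 weeks AL and Nectin2 at 22 weeks DR. Lower calls outnumbered higher ones in the window, 4 to 0, 7 to 4 and 7 to 1. The part of flanking sequence, of overlapping transcripts and of cell makeup in these values was not tested.

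**Figure D1:**
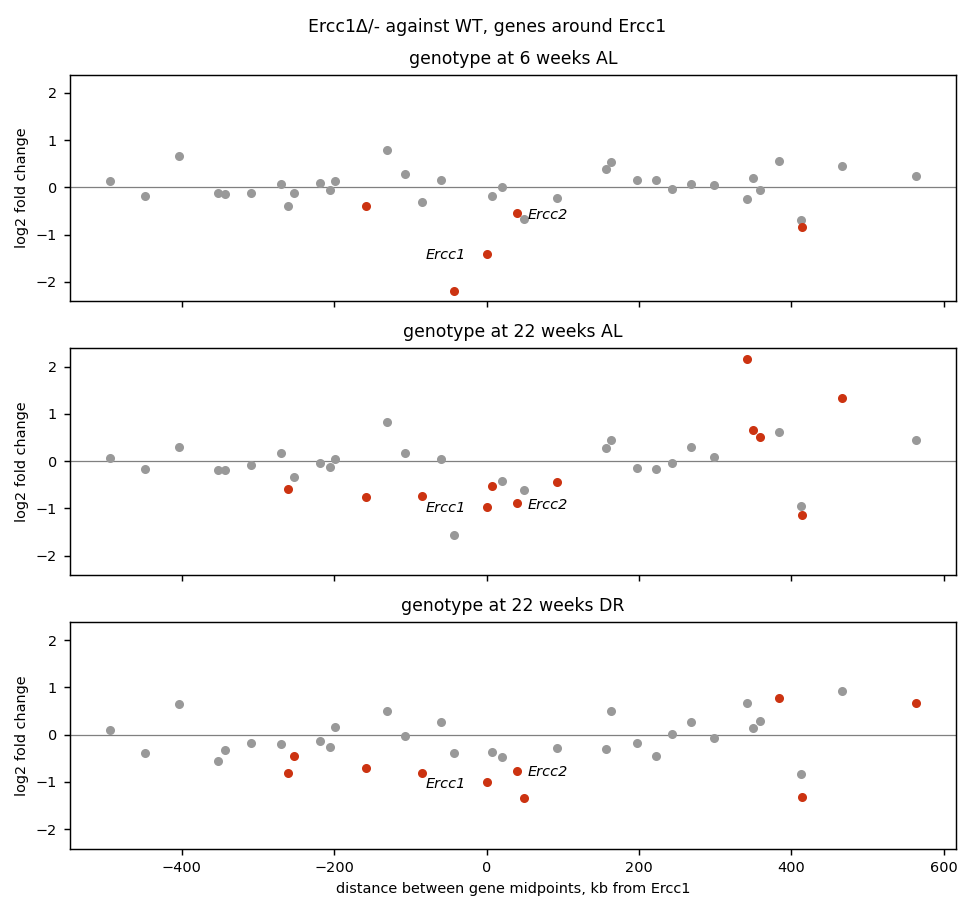
Log2 fold change of Ercc1Δ/- against WT (y axis) for tested genes around Ercc1, placed by the distance between gene midpoints (x axis, kb), 1 panel per comparison, with called genes in red and others in grey. Ercc1 and Ercc2 are both below zero in every panel.

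None of the other 38 members was called at 6 weeks. Called lower were Ercc1 and Ercc2, 2 of 40 members against a background of 1.13% of all genes, and called higher were 0 members against 0.567%. By DESeq2 the same count of 2 was reached. At an unadjusted p under 0.05 there were 6 members against 12.8% of all genes. The 3 largest changes at this age were those of Ercc1, of Rpa3, the small RPA subunit, at log2 0.69 (SE 0.24, edgeR adjusted p = 0.179), and of Pole at log2 0.59 (SE 0.37, edgeR adjusted p = 0.563).

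At 22 weeks AL 3 members were called higher, against 5.88% of all genes, and 3 lower, against 6.16%. With 10 members at an unadjusted p under 0.05 against 26.1% of all genes, the members' shares lay near the background. The 3 called higher were Lig1, Pole and Rpa1, and Slx4 joined Ercc1 and Ercc2 among the lower. Under DR 1 member was called higher (Lig1) against 5.97%, and 2 lower (Ercc1 and Ercc2) against 7.03%. Only 4 members had an unadjusted p under 0.05 there, against 26.1% of all genes. The largest changes were those of Pole, Ercc1 and Ercc2 at 22 weeks AL, and Ercc1, Pole and Ercc2 under DR.

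**Figure D2:**
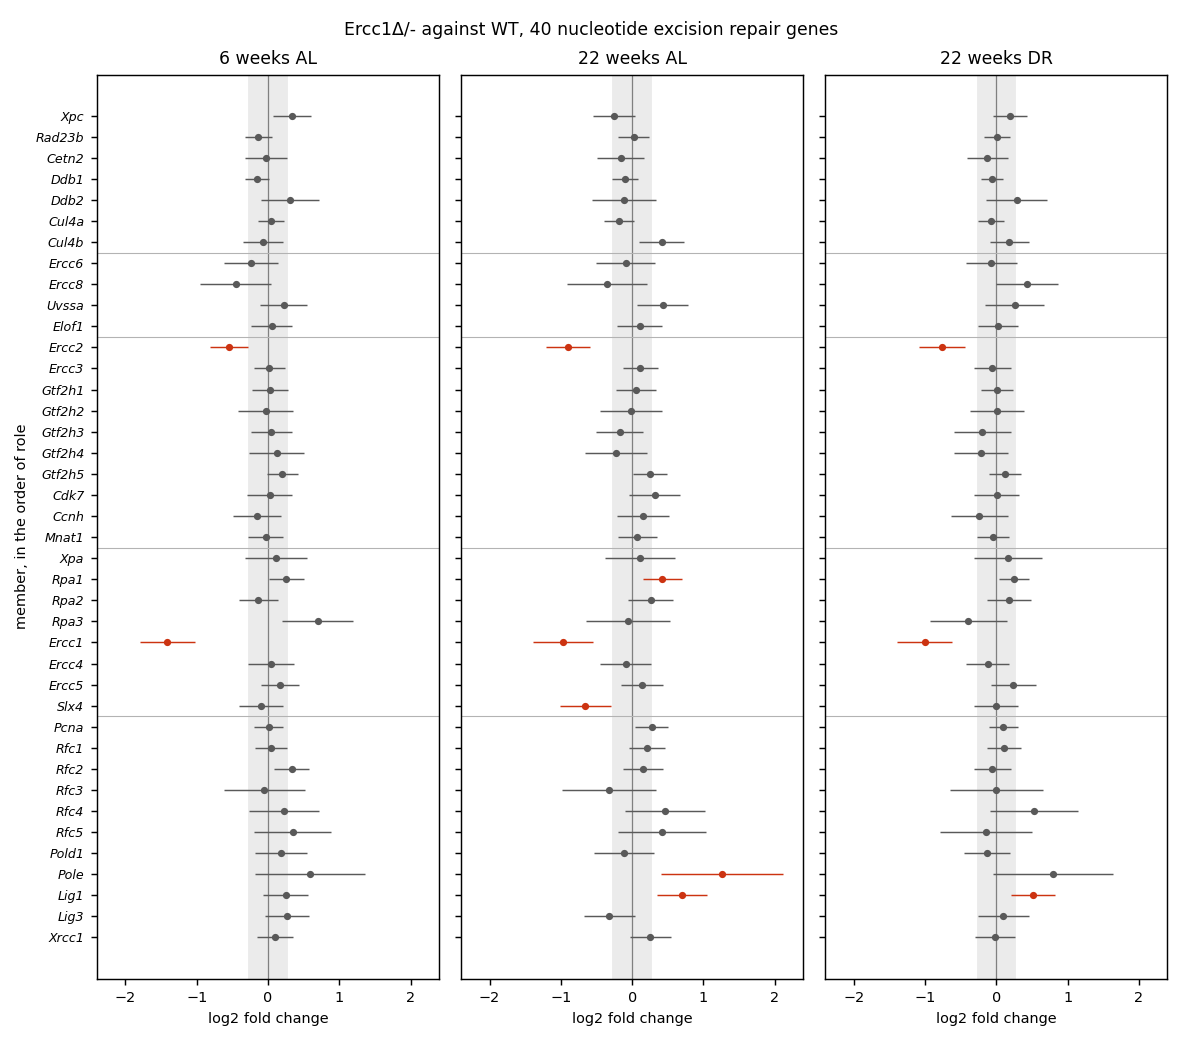
Log2 fold change of Ercc1Δ/- against WT (x axis) with 95% intervals for the 40 members (y axis, horizontal lines separating the roles), 1 panel per comparison; red members were called and the grey band marks changes under 1.2-fold. Ercc1 and Ercc2 are the 2 members called in every panel.

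Lig1, the ligase that seals gaps in replication and repair, was the gap-filling member called on both diets. At 22 weeks AL it measured 43.7, 59.4, 59 and 47.5 normalized counts in WT and 81.2, 88.3, 89.3 and 87.1 in Ercc1Δ/-, with no overlap, or 1.62 times WT (1.28 to 2.07, edgeR adjusted p = 0.00767). Under DR it measured 62.1, 55.1, 51.4, 73.1 and 62 in WT and 84.7, 102, 86.4, 69.5 and 97.2 in Ercc1Δ/-, or 1.43 times WT (1.15 to 1.76, edgeR adjusted p = 0.024). One mutant there lay below the highest WT, and the call was lost without Ercc1Δ/- 014, Ercc1Δ/- 029 or WT 017. It was also lost with no filter on low counts (edgeR adjusted p = 0.102) and with replicate 003 added (0.0888). At 6 weeks the ratio was 1.19 (0.956 to 1.48, edgeR adjusted p = 0.545).

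Pole measured 2.91, 7.37, 4.27 and 6.84 normalized counts in WT and 14.4, 10.5, 16.7 and 19.9 in Ercc1Δ/- at 22 weeks AL. The groups did not overlap and the ratio was 2.4 (1.33 to 4.33, edgeR adjusted p = 0.0473), but the interval was wide. This call was lost when any of 15 of the 18 libraries in the fit was left out, among them all 8 at 22 weeks. It was also lost with no filter on low counts, with all 6 groups in 1 fit and with replicate 003 added (edgeR adjusted p = 0.0781, 0.0614 and 0.0506). Under DR the mutants spread from 2.4 to 39.4 and covered the WT range.

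Rpa1, the large RPA subunit that binds single-stranded DNA, measured 222, 237, 227 and 247 in WT and 270, 364, 315 and 314 in Ercc1Δ/- at 22 weeks AL. These did not overlap, at 1.34 times WT (1.11 to 1.62, edgeR adjusted p = 0.0341). The call was lost without Ercc1Δ/- 005, 013 or 026 or WT 012, 018 or 020, with no filter on low counts (edgeR adjusted p = 0.117) and with replicate 003 added (0.239). Under DR the ratio was 1.19 (1.02 to 1.37, edgeR adjusted p = 0.118).

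Slx4 was lower at 22 weeks AL and not elsewhere called. WT had 110, 116, 122 and 104 normalized counts and Ercc1Δ/- 79.4, 69.3, 80.9 and 72.2, without overlap, at 0.634 times WT (0.494 to 0.813, edgeR adjusted p = 0.0139). That call was lost without Ercc1Δ/- 005 (edgeR adjusted p = 0.0564) and with replicate 003 added (0.185). Under DR the ratio was 0.997 (0.807 to 1.23), and the difference between the diets in the genotype effect had an adjusted p of 0.404.

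**Figure D3:**
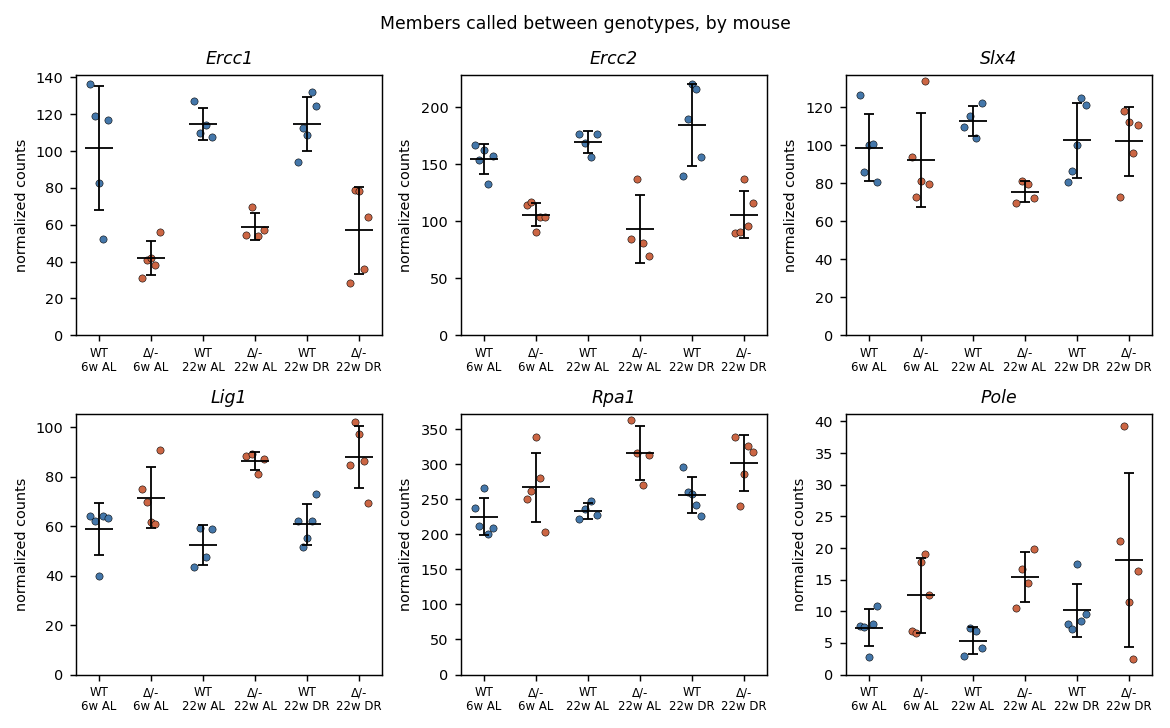
Normalized counts (y axis, from zero) of the 6 members called between genotypes, 1 point per mouse and 1 column per group, blue for WT and orange for Ercc1Δ/-, with the mean and SD in black. At 22 weeks AL the genotypes do not overlap for any of the 6.

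These rises stood beside changes in other genes of the same libraries. The summed normalized counts of 18 proliferation genes ran from 487.6 to 545.3 in WT and 639 to 806.3 in Ercc1Δ/- at 22 weeks AL, from 471.3 to 546.6 and 558.3 to 731.7 under DR, and from 502.2 to 613.7 and 594.1 to 766.6 at 6 weeks. Of the 18, 10 passed the count filter, with 9, 10 and 8 above zero at 6 weeks, 22 weeks AL and DR. In each comparison 2 were called higher, Top2a and Mcm5 at 22 weeks AL, and Mki67 and Top2a at 6 weeks and under DR. Of all genes, 0.567%, 5.88% and 5.97% were called higher at 6 weeks, 22 weeks AL and DR. The sum of 5 macrophage markers was 629.7 to 947.7 in WT and 1437 to 2660 in Ercc1Δ/- at 22 weeks AL, and that of 5 smooth muscle markers 110000 to 133700 and 58100 to 90450. Under DR macrophage markers summed to 403.9 to 780.4 in WT and 937.4 to 3958 in Ercc1Δ/-, and smooth muscle markers to 115600 to 149100 and 80730 to 87610. Neither pair overlapped on either diet. The median macrophage sum in Ercc1Δ/- was 2064 at 22 weeks AL and 1064 under DR. Between DR and AL in Ercc1Δ/-, 4 of the 5 macrophage markers had negative log2 fold changes and 1 a positive one. Of these markers, C1qa and Cd68 were called lower, with 1.64% of all genes called in either direction. The sum of 4 cardiac muscle markers overlapped at 22 weeks AL (315.5 to 766.5 and 612.2 to 1261) but not under DR (327.4 to 624.1 and 759.6 to 2052), and that of 4 endothelial markers overlapped on both. The cardiac marker Tnnt2 was called higher on both diets, but 3 of the 4 cardiac markers had negative log2 fold changes at 22 weeks AL. The cardiac median was -0.341 there and 1.67 under DR, where all 4 were positive. The endothelial markers Cdh5 and Pecam1 were called higher under DR, while 3 of the 4 endothelial markers were negative at 22 weeks AL. Mitochondrial genes took 2.47 to 3.72% of counts in WT and 5.37 to 5.96% in Ercc1Δ/- at 22 weeks AL, without overlap, and 2.88 to 5.12% and 4.04 to 9.22% under DR. The share of ambiguous reads was 1.59 to 1.66% in WT and 1.74 to 1.82% in Ercc1Δ/- at 22 weeks AL, and 1.593 to 1.65% and 1.653 to 1.782% under DR, with no overlap on either diet. Thymocyte and B cell markers summed to at most 54.37 and 55.18 in any library. In bulk tissue fewer cells of a type and less RNA per cell cannot be told apart. The part of proliferation, cell makeup, mitochondrial share and depth in the values of Lig1, Pole, Rpa1 and Slx4 was not tested. Nor was that of flanking sequence in Lig1, which lies on chromosome 7, 6031 kb from Ercc1. Of 150 tested genes 2 to 10 Mb from Ercc1, 11.3% were called at 22 weeks AL and 12.7% under DR. On the other chromosomes the shares were 11.9% and 12.9%. After a binomial draw thinned every library to 921167 counts, Ercc1 and Ercc2 alone of the 34 members still tested were called at 22 weeks, on either diet.

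The partners of ERCC1 and the other core factors gave values on either side of WT. Ercc4, whose protein is the catalytic partner of ERCC1, had means of 83.2 ± 7.76 in Ercc1Δ/- and 76.6 ± 21.1 in WT at 6 weeks, 91.4 ± 25 and 94.9 ± 3.83 at 22 weeks AL, and 79.1 ± 11.7 and 87.7 ± 7.85 under DR (SD). The ratios to WT were 1.03 (0.82 to 1.29), 0.94 (0.732 to 1.21) and 0.919 (0.745 to 1.13). For Xpa they were 1.08 (0.797 to 1.47), 1.08 (0.768 to 1.51) and 1.12 (0.805 to 1.55). The mutants spread widely, from 30.7 to 89.3 normalized counts of Xpa at 22 weeks AL, around a WT range of 41.9 to 53.4.

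Ercc5, the nuclease of the other cut, stood at 1.12 (0.936 to 1.35), 1.1 (0.898 to 1.35) and 1.18 (0.946 to 1.47) times WT. Its mutant values under DR ran from 70.8 to 242 around a WT range of 141 to 179. Ercc3, the second TFIIH helicase, stood at 1.01 (0.871 to 1.17), 1.08 (0.916 to 1.28) and 0.961 (0.801 to 1.15). Apart from Ercc2, no TFIIH member was called in any genotype comparison.

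Xpc and Ddb2, which find lesions, were not called either. Xpc had medians of 126.6 in WT and 142.4 in Ercc1Δ/- at 6 weeks, 144.2 and 121.3 at 22 weeks AL, and 136.1 and 160.9 under DR. Its ratios were 1.26 (1.05 to 1.51), 0.84 (0.683 to 1.03) and 1.14 (0.969 to 1.34), and the interaction of genotype with age had an unadjusted p of 0.00584 and an adjusted p of 0.195. Ddb2, a p53 target in human cells, stood at 1.24 (0.932 to 1.65), 0.924 (0.675 to 1.27) and 1.22 (0.909 to 1.64). In the same libraries Cdkn1a, a p53 target that halts the cell cycle, rose from 167.5 ± 38.5 to 670.6 ± 75.8 normalized counts at 22 weeks AL (SD, edgeR adjusted p = 3.41e-08).

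**Figure D4:**
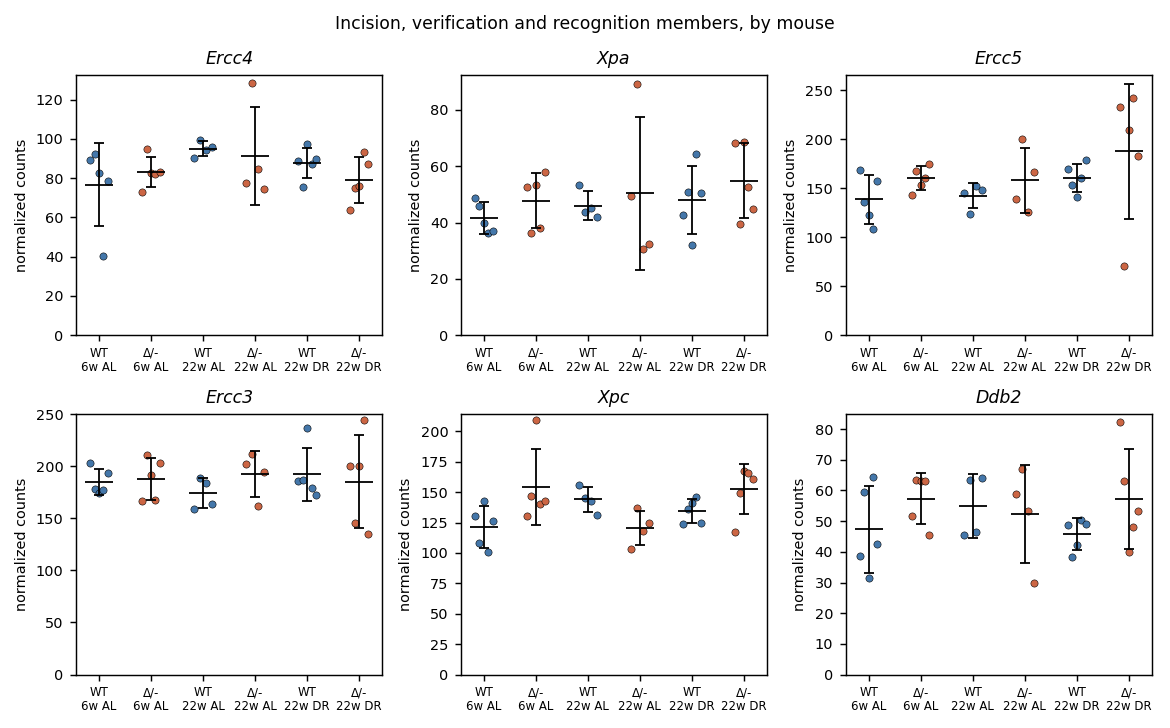
Normalized counts (y axis, from zero) of 6 members not called in any comparison, 1 point per mouse and 1 column per group, blue for WT and orange for Ercc1Δ/-, with the mean and SD in black. The genotypes overlap for every one of these 6 at each age and diet, which was not so for all uncalled members.

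A p above the threshold does not show that a gene kept its level, so the intervals bear on whether the other members rose as Ercc1 fell. Over the 38 members without Ercc1 and Ercc2, the upper 95% bound lay below 1.5 times WT for 32 at 6 weeks, 29 at 22 weeks AL and 30 under DR, and below 2 times WT for 36, 34 and 36. Intervals wholly within 1.2-fold were few. They were those of Cul4a, Ercc3 and Pcna at 6 weeks, Rad23b at 22 weeks AL, and Cul4a, Ddb1, Gtf2h1 and Rad23b under DR. The median log2 fold change of the 38 was 0.05, 0.09 and 0.01, beside 0.02, 0.03 and 0.00 over all genes tested. The median of the 11 gap-filling members was 0.23 at 6 weeks, 0.26 at 22 weeks AL and 0.10 under DR, with 10, 8 and 6 above zero, beside 6762, 6652 and 6254 of all 12353 genes.

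At 22 weeks AL 8 of the 40 members (20%) lay higher in every Ercc1Δ/- library than in any WT, against 9.01% of all genes, and 3 (7.5%) lower, against 9.63%. Among the 8 were 5 that were not called, namely the ligase scaffold Cul4b, the TFIIH subunits Gtf2h5 and Cdk7, the RPA subunit Rpa2 and the polymerase clamp Pcna. Their log2 fold changes were 0.42, 0.25, 0.32, 0.26 and 0.27, with edgeR adjusted p = 0.0782, 0.178, 0.263, 0.293 and 0.109. Without overlap at 4 against 4, the exact two-sided permutation p is always 0.0286, the smallest that this design allows. As these 5 were picked for lack of overlap, that p adds nothing further.

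Age and diet moved no member past the threshold within a genotype. Between 22 and 6 weeks 0 of 40 members were called in WT (0.235% of all genes) and 0 in Ercc1Δ/- (4.69%). Between DR and AL 0 were called in WT (1.28%) and 0 in Ercc1Δ/- (1.64%). By edgeR at an unadjusted p under 0.05 the counts were 3, 4, 1 and 3 members, against 8.64%, 17.8%, 12.8% and 15% of all genes, and DESeq2 also called 0 in each. Ercc1 itself was 1.41 times higher in Ercc1Δ/- at 22 weeks AL than at 6 weeks, with an unadjusted p of 0.0334 and an adjusted p of 0.232.

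**Figure D5:**
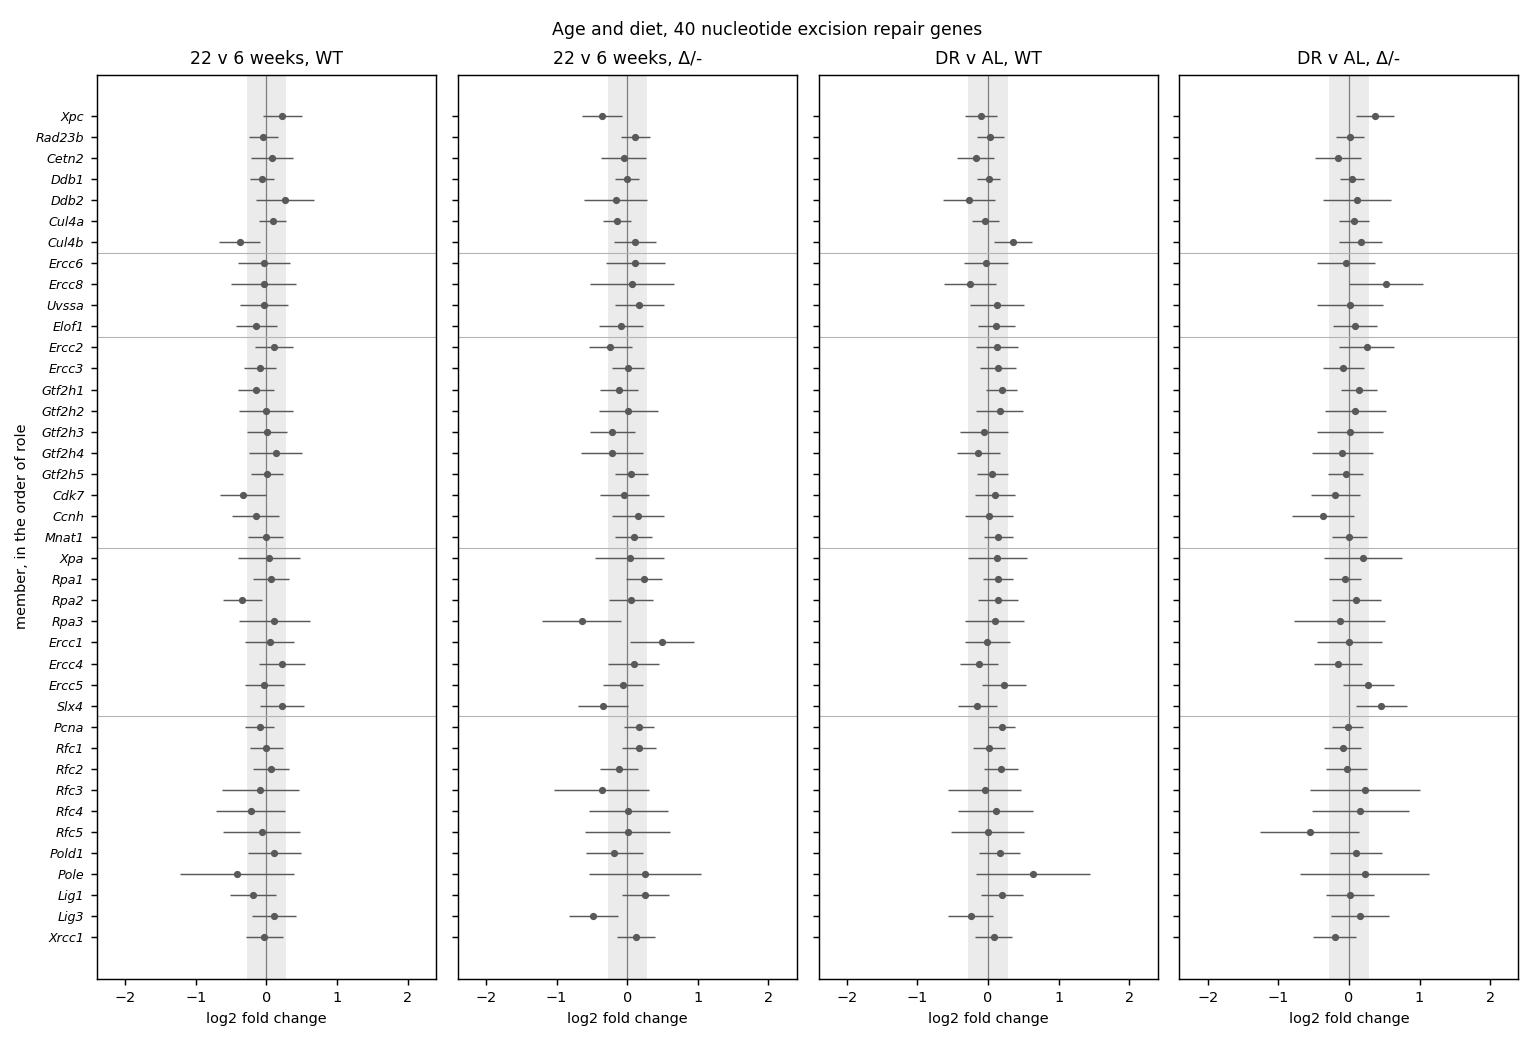
Log2 fold change (x axis) with 95% intervals of the 40 members (y axis, horizontal lines separating the roles) between ages and between diets, 1 panel per genotype and contrast; the grey band marks changes under 1.2-fold. No member is drawn in red, the colour of called members.

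The interactions were likewise without a called member. Genotype by age called 0 members against 0.842% of all genes, and genotype by diet 0 against 0.0971%. At an unadjusted p under 0.05 they held 4 members against 11.4% and 3 against 8.72% of all genes, and DESeq2 called 0 in both. Cul4b, a ubiquitin ligase scaffold on the X chromosome, measured 76.7 to 86.6 normalized counts in WT at 22 weeks AL, 88.4 to 139.9 in WT at 6 weeks and 88.2 to 141.5 in WT under DR, with edgeR adjusted p = 0.383 for age and 0.206 for diet.

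The other repair genes were counted by pathway. Of 21 tested further excision repair factors 1 was called between genotypes, the chromatin remodeller Ino80, lower at 22 weeks AL (log2 fold change -0.44, edgeR adjusted p = 0.0347). Of 16 tested base excision repair genes 1 was called, Parp1, lower in the same comparison (-0.37, edgeR adjusted p = 0.0466). With 6.16% of all genes called lower there, 1 of 21 and 1 of 16 lay near the background. The count filter kept 16 of 24 listed crosslink repair genes, 15 of 23 of double-strand break repair and 7 of 8 of mismatch repair. Among these, edgeR called 0 in the 3 genotype comparisons. Of all genes, 0.567% were called higher and 1.13% lower at 6 weeks. The shares were 5.88% and 6.16% at 22 weeks AL, and 5.97% and 7.03% under DR. At an unadjusted p under 0.05 there were 3, 4 and 3 of the 38 genes at 6 weeks, 22 weeks AL and DR. The shares of all genes were 12.8%, 26.1% and 26.1%. DESeq2 called 0, 0 and 1 of the 38, the last being the Fanconi anaemia gene Fancg.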

How the data were processed

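RNA of the aortic arch was sequenced with a stranded kit carrying molecular identifiers. Per the labels and methods, the authors trimmed reads, aligned them with STAR 2.7.10a to GRCm39, removed duplicates with UMI-tools 1.1.2 and deposited raw gene counts from HTSeq 2.0.2. The 5 lines that name no gene were kept out. Each mouse gave 1 library and none pair. Members and lists were chosen with earlier results of these data known.

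Genes were kept where over 10 of the 28 libraries had a count above 10, and fitted in edgeR 4.0.16 (quasi-likelihood, robust, TMM factors, group and sex as terms), 1 model for the 18 AL libraries and 1 for the 18 at 22 weeks. Benjamini-Hochberg adjustment ran over all genes tested. Normalized counts were scaled to 3683502 effective counts. Exact permutation tests were two-sided. DESeq2 1.42.0, other settings and leaving out each library were alternatives. Thinning drew each read binomially, once, with edgeR's thinCounts added after the data were seen. The fit was also run on simulated counts with a fixed dispersion, with changes placed only in genes above a minimum expected count. Recovery in members with few reads, such as Pole, was therefore not measured, and no outcome of that run is given here. All members, every called member and genes within 500 kb of Ercc1 were named by rule. Promoter windows came from GRCm39 with GENCODE annotation. The intervals given with fold changes and in the figures were built from the standard errors of the edgeR quasi-likelihood fit. No interval for counting error alone is given.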

Additional observations from a re-analysis of the deposited data

Results flagged for a closer look

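Among 72 groups of values looked at (12 members in 6 groups), 5 held a library far from its group by Dixon's gap test, and chance flags about 1 group in 20. Ercc4 measured 40.2 normalized counts in WT 6 weeks AL 011, with the nearest at 78.6. Xpc measured 209 in Ercc1Δ/- 6 weeks AL 015, with the nearest at 147. Ercc3 and Pole measured 237 and 17.4 in WT 22 weeks DR 010, with the nearest at 187 and 9.59. Lig1 measured 40 in WT 6 weeks AL 019, with the nearest at 61.9.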

How the results depend on the processing

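With DESeq2, median-ratio size factors, no filter on low counts, no sex term or all 6 groups in 1 fit, the count of called members stayed within 1.5 times that reported in all 9 comparisons. Single calls were still lost, those of Pole and Rpa1 (22 weeks AL) and Lig1 (22 weeks DR) with no filter, and that of Pole with all 6 groups in 1 fit. The 6 comparisons with no called member held 0 under every alternative run, thinning and single libraries left out included. Adding replicate 003 gave 3 called members at 22 weeks AL and 1 at 6 weeks, with Pole, Rpa1, Slx4, Ercc2 (6 weeks) and Lig1 (DR) no longer called. Thinning gave 2 at 22 weeks AL and 0 at 6 weeks, where the log2 fold change of Ercc1 was -1.045 (edgeR adjusted p = 0.0508). The planned thinning was first run with edgeR's thinCounts, and the binomial draw took its place after that result was seen, since thinCounts scattered with 4.12 times the binomial variance and the draw with 0.996 times. With thinCounts 0 members were called at 6 weeks AL, 22 weeks AL and 22 weeks DR, the log2 fold change of Ercc1 was -1.17, -0.60 and -0.72, not called, and that of Slx4 at 22 weeks AL turned to 0.0587. Leaving out 1 library gave 3 to 6 members at 22 weeks AL, the lowest without Ercc1Δ/- 005, and 1 to 3 at 6 weeks. No other direction of a called member reversed. The cause of these shifts was not tested. Members with few reads, Pole above all, are limited by depth.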
